A study of Mus musculus with 32 samples.

Results

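The genes of the mitochondrial ribosomal proteins were compared between mouse brain tumors driven by MYC and by MYCN. Members were the protein-coding genes whose mouse symbol starts with Mrpl or Mrps followed by a number, and 77 of the 37310 genes of the count table met this rule. Of these, 50 belong to the large ribosomal subunit, 26 to the small subunit, and 1, Mrps36, is now known as a component of another mitochondrial complex. The RNA came from fresh-frozen biopsies of 6 GMYC and 8 GTML tumors. GMYC stands for the Glt1-tTA/TRE-MYC cross, kept as double hemizygotes on the FVB/N background, in which the transactivator tTA is made under the Glt1 promoter and switches on a MYC transgene in hindbrain cells unless doxycycline is given. GTML is the matching model with a MYCN transgene and a luciferase gene under the same transactivator. By the study's methods most of the GTML data had been generated earlier, and the GMYC RNA was sequenced for the study. For those tumors, model and origin of the data cannot be told apart. No label gives a sequencing run, and its part in the results was not tested. The labels give neither the age, sex or treatment of the animals nor whether several tumors came from 1 animal, so p-values measure the spread between these biopsies.

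Mitochondria keep their own ribosome, which translates the few mRNAs encoded by mitochondrial DNA, all of them for subunits of the respiratory chain and ATP synthase. Its rRNAs are transcribed from mitochondrial DNA, whereas every one of its proteins is encoded in the nucleus, made in the cytosol and imported. Many of these proteins have a counterpart in the bacterial ribosome, and the rest were added during the evolution of mitochondria. Several nuclear factors, among them NRF1, ETS-family factors and YY1, are known to bind promoters of mitochondrial genes, and MYC and MYCN bind the E-box.

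Total counts ranged from 4602294 to 7279811 per tumor, with a median of 7054380 in GMYC and 5584680 in GTML tumors. Values are given as CPM, a count divided by the depth of its tumor after adjustment with the TMM factors of edgeR, and log2 fold changes are GTML over GMYC. The mouse rows Myc and Mycn followed the labels. Myc lay between 33.4 and 166 CPM in GMYC and between 2.60 and 8.68 CPM in GTML tumors. Mycn lay between 7.65 and 34.4 CPM in GMYC and between 119 and 191 CPM in GTML tumors. GMYC tumor 6 was alone in having Myc (33.4 CPM) about equal to Mycn (34.4 CPM), and the other GMYC tumors had Myc at 134 to 166 CPM. The study describes the MYC transgene as human, and how far these rows measure the transgenes was not tested. Otx2, a transcription factor of Group 3 medulloblastoma, was at 237 to 378 CPM in every tumor. The tumors also split by how much of their counts fell on small nucleolar RNAs, a split seen in the counts that no label names. This share was above 0.3% in GMYC tumors 1 to 4 and GTML tumors 1 and 2, and below 0.3% in GMYC tumors 5 and 6 and GTML tumors 3 to 8, so each side holds few tumors of 1 model. In the sample order of the series, all tumors with the higher share come before the others, and what this order stands for is not given. GTML tumor 2 stood apart in other genes too, with the highest Gli1 (14.1 CPM) and the lowest Slc1a2 (256 CPM) and Otx2 (237 CPM) of all tumors. The study compared the models with only the GTML tumors classed as Group 3, leaving out a GTML tumor with a signature like the SHH subgroup. No label names that tumor, and whether it is GTML tumor 2 is not given, so all 8 were kept here. Counts over the members are therefore given on each side of this split and without GTML tumor 2.

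Together the members took up 0.356% to 0.458% of the counts in GMYC tumors and 0.2497% to 0.399% in GTML tumors. Their summed level was lowest at 3584, median 3899 and highest at 4581 CPM in GMYC tumors, and lowest at 2445, median 3102 and highest at 4100 CPM in GTML tumors. GMYC tumor 5 was the highest and GTML tumor 6 the lowest, and of the GTML tumors only tumor 2 was within the GMYC range. Averaged over members on the log2 CPM scale, the level was 5.54 ± 0.15 (SD, n = 6) in GMYC and 5.13 ± 0.24 (SD, n = 8) in GTML tumors. The largest number of members, 31, had their highest CPM in GMYC tumor 5, and 38 had their lowest in GTML tumor 6. Members also varied more among GTML tumors, with a median coefficient of variation of 22.7% against 13.9% among GMYC tumors, and 64 of 76 members were more variable in GTML. This spread was not computed over all genes, so whether it is particular to the members is not known. The GTML tumors also had the lower median of total counts. In bulk tumor RNA, fewer cells of a type and less RNA per cell cannot be told apart.

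**Figure D1:**
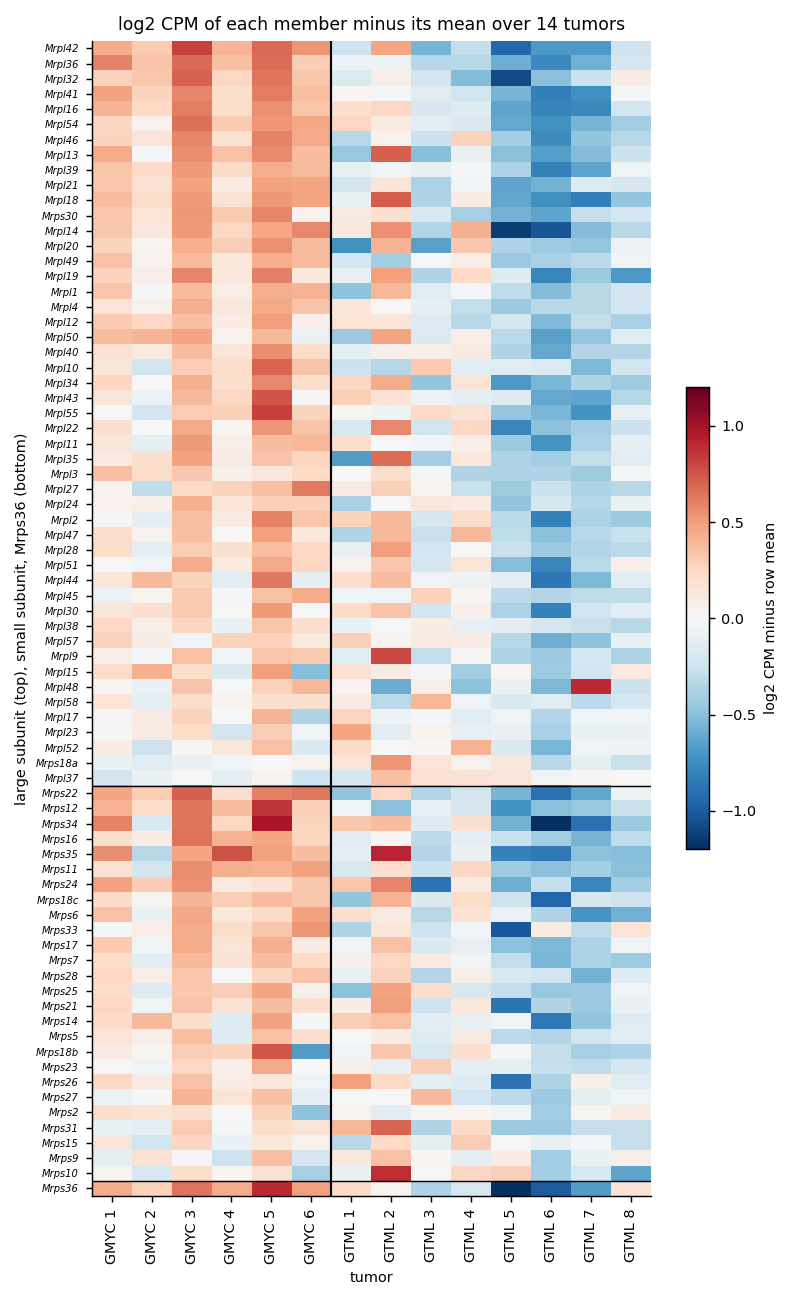
Log2 CPM of each of the 76 tested members minus its mean over the 14 tumors (color), with members in rows, large subunit above small subunit and Mrps36 at the bottom, and tumors in columns. The 6 GMYC columns are mostly above the row means, GTML tumors 5, 6 and 7 are below them for nearly all members, and GTML tumor 2 is mixed.

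In the comparison of the models, 76 members passed the filter on low counts (CPM above 1 in at least 3 tumors). Of these, 23 were lower in GTML tumors and 0 were higher by edgeR's quasi-likelihood test with an adjusted p under 0.05 over 21024 genes. The background was 9.71% of all tested genes called lower and 11.5% called higher, and the 23 members were 30.3% of those tested. The log2 fold change was negative for 72 members, with a median of -0.39 and a range from -0.88 to 0.19, whereas the median was 0.04 over all genes tested and 0.06 over protein-coding genes. At an unadjusted p under 0.05, 46 members passed, 0 of them higher in GTML, beside 7938 of all 21024 genes, 4280 of them higher. DESeq2 called 30 lower and 0 higher, beside 12.1% of all genes lower, and limma-voom 26 and 0, beside 11.4%. The stricter thresholds were an adjusted p under 0.01 and a 2-fold change, which 1.1% of all genes passed on the lower side. By these, 0 members were called by any of the 3 tools. An unadjusted p under 0.05 with that fold was reached by 0 members, beside 3522 of all genes in either direction. All GTML tumors lay below all GMYC tumors for 8 members, against a background of 2.48% of genes, and above them for 0, against 2.14%.

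The count of members depended on the tumors compared. Among the 8 tumors with the lower small nucleolar RNA share (2 GMYC, 6 GTML), 15 members were lower, 11 of them among the 23, beside 6.69% of all genes, and the median log2 fold change was -0.60. Among the 6 with the higher share (4 GMYC, 2 GTML), edgeR called 0, 6 passed an unadjusted p under 0.05 (2 of them higher in GTML), 50 had a negative log2 fold change and the median was -0.07. On that side only 2 of all genes, or 0.0106%, were called lower. In GTML tumors the average over members was 5.40 on the log2 CPM scale on the side with the higher share and 5.04 on the other, and in GMYC tumors 5.504 and 5.63. With the split as a term in the fit, 15 members were lower, beside 6.77% of all genes. Without GTML tumor 2, 43 members were lower, beside 15.1% of all genes. Over the 14 fits that leave out 1 tumor the count ran from 12 (without GMYC tumor 3, beside 5.65% of all genes) to 43, the median log2 fold change from -0.46 to -0.34, and 12 members were called lower in every fit. Of those described below, Mrpl32, Mrpl39, Mrpl41, Mrpl46, Mrpl49 and Mrps16 were called on neither side of the split. Their edgeR adjusted p was 0.0541 to 0.0729 among tumors with the lower share and 0.305 to 0.539 among the others. Mrpl21, Mrpl36, Mrpl42, Mrps12 and Mrps22 were called among tumors with the lower share only.

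**Figure D2:**
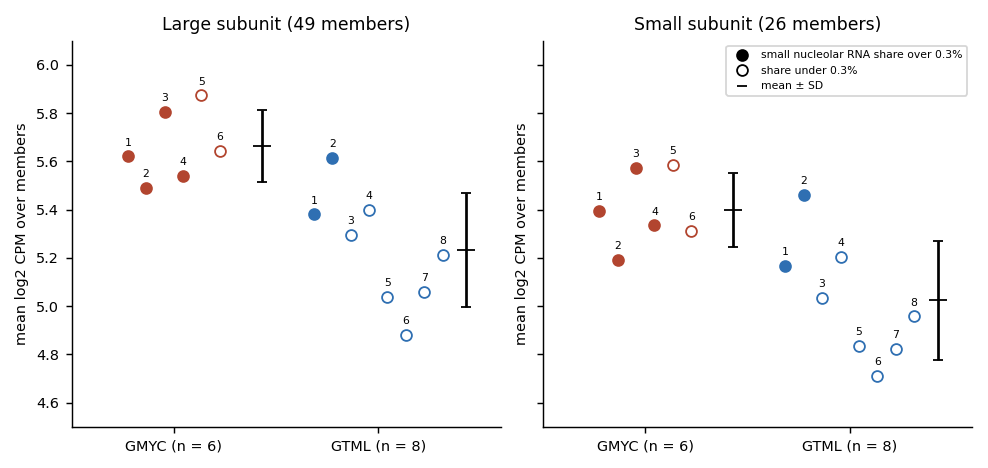
Mean log2 CPM over the large subunit members (left) and the small subunit members (right) in each tumor, numbered by replicate, with the mean and SD of each model beside them. Filled points have a small nucleolar RNA share over 0.3%. GMYC tumors sit between 5.49 and 5.87 (large) and GTML tumors between 4.88 and 5.61, with GTML tumor 2 the highest of its model.

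Promoter sequences from RefSeq (GRCm38.p6; 250 bases before to 50 after each start) matched 68 of the 77 members, with 74 starts. The motifs searched, on both strands, were CACGTG (E-box), GCATGCGC (NRF1), CCGGAAGT (ETS) and AAGATGGCG (YY1). GCATGCGC was found for 10.3% of these members against 3.05% of all genes in that table, CCGGAAGT for 16.2% against 4.31%, and AAGATGGCG for 11.8% against 1.64%. CACGTG was found for 7.35% of members against 8.09% of all genes. Counted over starts in place of genes it was in 9.46% of member promoters against 7.15% of all promoters. Those 7 member promoters belong to 5 members, since Mrpl2 enters repeatedly with overlapping windows. The median log2 fold change was -0.44 in the 5 tested members with CACGTG and -0.38 in the 62 without it, and -0.38 against -0.37 for any of the motifs. The windows below are shown because they hold matches before the RefSeq start of members named in the results, with matches in capitals, 5′ to 3′ on the strand of the gene. The GENCODE annotation has other starts, and it places the Mrpl32, Mrpl36 and Mrpl39 windows within exons of those same genes, the Mrps11 window within an Mrpl46 exon, the Mrps18b window within a Ppp1r10 exon and 11 bases of the Mrps18c window within a Helq exon. For Mrps22, the 130 bases before the start are given.
Mrpl36, chr13:73330961-73330990 (+): catccCACGTGaccttaCGCCATCTTtctt
Mrpl32, chr13:14613096-14613125 (-): tGCGCATGCGCaagaggggcctGCGCATGC
Mrpl39, chr16:84735350-84735379 (-): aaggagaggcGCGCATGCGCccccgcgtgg
Mrps11, chr7:78783012-78783041 (+): cctacgggcgcCGCCATCTTtctgtcttcc
Mrps18c, chr5:100798588-100798617 (+): ccccgggtCACGTGACTTCCGGcccgggaa
Mrps18b, chr17:35916645-35916674 (-): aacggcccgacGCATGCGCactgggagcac
Mrps22, chr9:98601680-98601809 (-): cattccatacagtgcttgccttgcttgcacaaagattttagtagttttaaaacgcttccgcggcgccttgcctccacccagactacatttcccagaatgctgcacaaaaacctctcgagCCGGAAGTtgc
The Mrpl36 window holds an E-box next to a YY1 match, and Mrpl32 and Mrpl39 hold NRF1 matches that overlap each other in a palindrome. Mrpl32 has a further NRF1 match at 22 to 15 bases before the start, outside the window shown. A match describes letters in the window, and binding was not measured.

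In the large subunit, 18 of 49 tested members were lower in GTML tumors, or 36.7% beside 9.71% of all genes. Of the rest, 0 were higher and 31 were not called, and the median log2 fold change of the subunit was -0.42. Among the 29 members with a bacterial counterpart, 9 were lower and all 29 log2 fold changes were negative. Mrpl36 had the smallest p of all members. Its level was lowest at 34.2, median 38.9 and highest at 44.5 CPM in GMYC tumors, and lowest at 16.3, median 22.0 and highest at 26.7 CPM in GTML tumors. The models did not overlap, and the log2 fold change was -0.85 ± 0.15 (SE, edgeR adjusted p = 0.00355). It was also called among the tumors with the lower small nucleolar RNA share (log2 fold change -0.96, adjusted p = 0.0300 by edgeR), while the value among the other tumors was -0.55 (adjusted p = 0.352).

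Mrpl32, whose maturation by the m-AAA protease of the inner membrane is a known step of ribosome assembly, ran from 32.9 to 45.3 CPM in GMYC tumors (median 34.9) and from 13.1 to 29.6 CPM in GTML tumors (median 23.4). The models did not overlap, and the log2 fold change was -0.71 ± 0.18 (SE, edgeR adjusted p = 0.0135). Mrpl21 was at 36.8 to 48.3 CPM in GMYC tumors (median 45.6) and at 22.2 to 38.2 CPM in GTML tumors (median 29.8), a log2 fold change of -0.58 ± 0.14 (SE, edgeR adjusted p = 0.0133). GTML tumor 2 was the 1 GTML tumor inside the GMYC range. Mrpl12, the stalk protein that recruits translation factors and is also known to bind the mitochondrial RNA polymerase, was at 30.7 to 41.5 CPM in GMYC tumors (median 35.7) and at 20.4 to 33.0 CPM in GTML tumors (median 24.7). Its gene shares 13.1% of its exon bases with the opposite-strand gene Gm16755. GTML tumors 1 and 2 were within the GMYC range, and the log2 fold change was -0.45 ± 0.15 (SE, edgeR adjusted p = 0.0400). This call was lost in 9 of the 14 fits that leave out 1 tumor, without the filter on low counts (adjusted p = 0.0669), with the length trend removed (0.0587), with the small nucleolar RNA split (0.0977) or the Y-linked covariate (0.110) in the fit, and on each side of the split. It was also lost with the replicate number as a block (edgeR adjusted p = 0.194). The other 5 lower members of this group were Mrpl1, Mrpl3, Mrpl4, Mrpl13 and Mrpl16, with log2 fold changes from -0.64 to -0.38. Of the 14 fits that leave out 1 tumor, Mrpl13 was called in 3, Mrpl1 in 4, Mrpl3 in 8, and Mrpl4 and Mrpl16 in 13 each. Mrpl13 went below the lowest GMYC tumor in 7 of 8 GTML tumors, whereas GTML tumor 2, at 112 CPM, was the highest of all tumors.

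**Figure D3:**
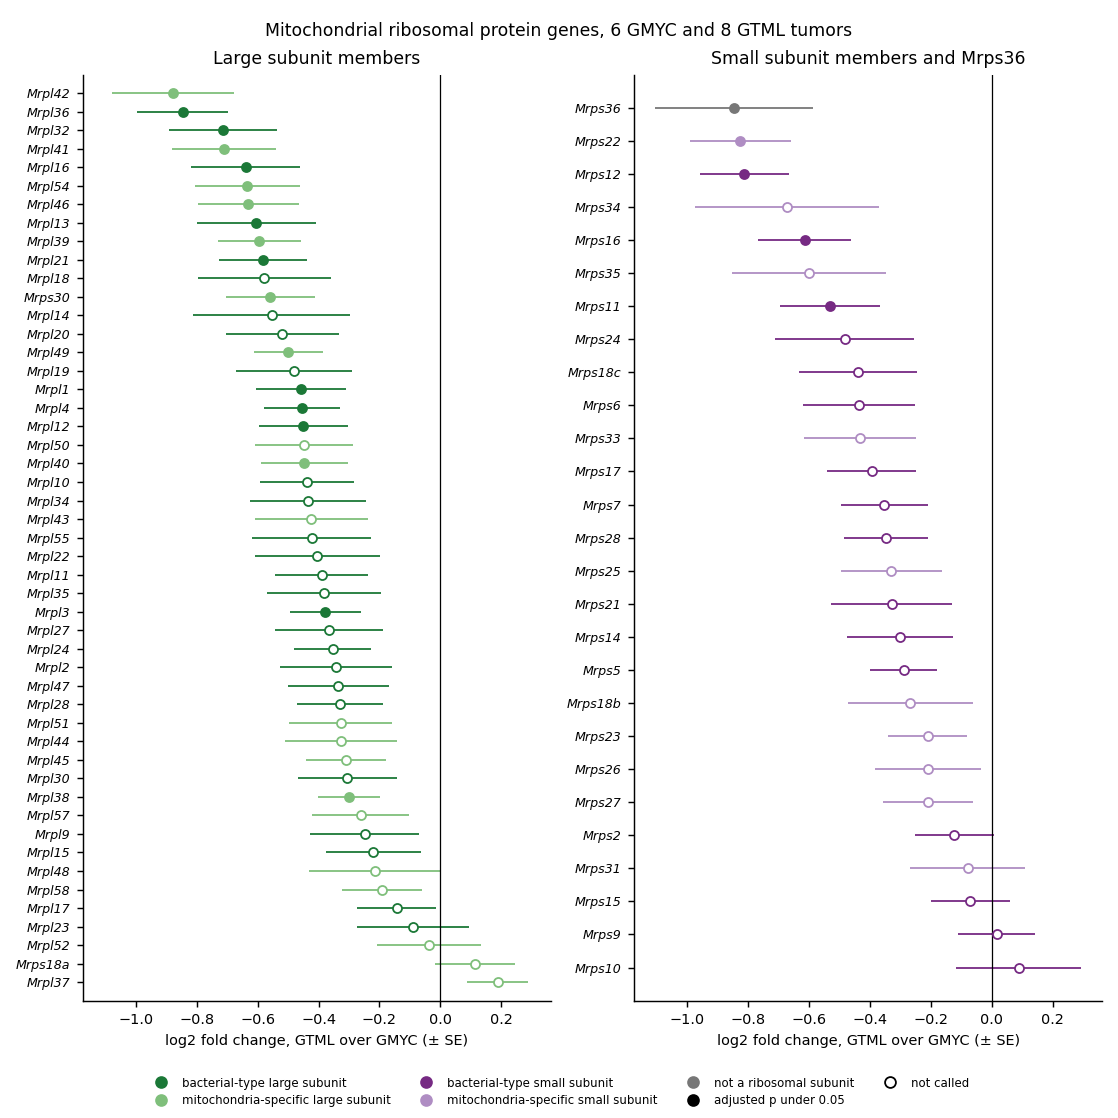
Log2 fold change of each tested member, GTML over GMYC, with its SE as the bar, in the large subunit (left) and in the small subunit with Mrps36 (right). Colors give the role, and filled points have an adjusted p under 0.05. Of the 76 points 72 lie below 0, the 23 filled points are all among them, and Mrpl42 is the lowest at -0.88.

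Of the 20 tested large subunit members without a bacterial counterpart, 9 were lower and 18 had a negative log2 fold change, with a median of -0.38. Mrpl42 had the largest difference of all members. It was at 32.9 to 46.8 CPM in GMYC tumors (median 37.2) and at 13.8 to 36.9 CPM in GTML tumors (median 19.8), a log2 fold change of -0.88 ± 0.20 (SE, edgeR adjusted p = 0.00975). GTML tumor 2 was at 36.9 CPM and the next GTML tumor at 22.4 CPM, and without that tumor the log2 fold change was -1.04 (edgeR adjusted p = 0.00115). Mrpl39, which resembles a threonyl-tRNA synthetase in sequence, was at 75.4 to 91.9 CPM in GMYC tumors (median 82.6) and at 36.7 to 63.5 CPM in GTML tumors (median 60.4). The models did not overlap, and the log2 fold change was -0.59 ± 0.14 (SE, edgeR adjusted p = 0.00984).

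Mrpl49 was at 88.8 to 116 CPM in GMYC tumors (median 111) and at 62.9 to 91.0 CPM in GTML tumors (median 71.8), a log2 fold change of -0.50 ± 0.11 (SE, edgeR adjusted p = 0.00945), with 7 of 8 GTML tumors below every GMYC tumor. Mrpl41 was at 26.4 to 35.1 CPM in GMYC tumors (median 30.7) and at 13.0 to 23.3 CPM in GTML tumors (median 19.98), a log2 fold change of -0.71 ± 0.17 (SE, edgeR adjusted p = 0.0122), with no overlap. Mrpl46 was at 33.1 to 44.9 CPM in GMYC tumors (median 38.3) and at 17.7 to 36.1 CPM in GTML tumors (median 23.7), a log2 fold change of -0.63 ± 0.16 (SE, edgeR adjusted p = 0.0165). GTML tumor 4 was the 1 GTML tumor within the GMYC range of Mrpl46. Its gene shares 12.2% of its exon bases with the opposite-strand gene Mrps11, and how the counting treated strand is not given in the sources used here, so the reads of that stretch cannot be told apart. Mrpl38, Mrpl40, Mrpl54 and Mrps30 were also lower, with log2 fold changes from -0.63 to -0.30, and were called in 4, 6, 13 and 14 of the 14 fits that leave out 1 tumor. Mrps30 carries a small subunit name but sits in the large subunit.

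In the small subunit, 4 of 26 members were lower in GTML tumors, 0 were higher and 22 were not called, with a median log2 fold change of -0.34 and 24 negative values. The 4 were Mrps12, Mrps22, Mrps16 and Mrps11. The shares called, 15.4% here and 36.7% in the large subunit, stand beside 9.71% of all genes. They were not tested against each other. Mrps12, the counterpart of a bacterial protein of the decoding center, was at 42.2 to 65.7 CPM in GMYC tumors (median 47.5) and at 22.0 to 35.1 CPM in GTML tumors (median 28.3). The models did not overlap, and the log2 fold change was -0.81 ± 0.15 (SE, edgeR adjusted p = 0.00396).

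Mrps22, in which inherited mutations cause a mitochondrial disease, was at 52.2 to 74.7 CPM in GMYC tumors (median 66.0) and at 24.4 to 54.0 CPM in GTML tumors (median 34.0). GTML tumor 2 alone overlapped the GMYC range, and the log2 fold change was -0.83 ± 0.17 (SE, edgeR adjusted p = 0.00630). It was the 1 lower gene of the 10 small subunit members without a bacterial counterpart, and this 10% is near the 9.71% of all genes. Mrps16 was at 20.4 to 30.1 CPM in GMYC tumors (median 24.4) and at 13.0 to 19.5 CPM in GTML tumors (median 15.8), a log2 fold change of -0.61 ± 0.15 (SE, edgeR adjusted p = 0.0138), with no overlap. Mrps11 was at 34.3 to 59.0 CPM in GMYC tumors (median 54.0) and at 28.3 to 47.6 CPM in GTML tumors (median 32.0), a log2 fold change of -0.53 ± 0.17 (SE, edgeR adjusted p = 0.0335). The ranges of Mrps11 overlapped, and its call was lost in 8 of the 14 fits that leave out 1 tumor, with thinned counts (adjusted p = 0.0528), when the fit held the Y-linked covariate (0.140) or a small nucleolar RNA term (0.0703), and on each side of the split. A block on the replicate number lost it too (edgeR adjusted p = 0.213).

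**Figure D4:**
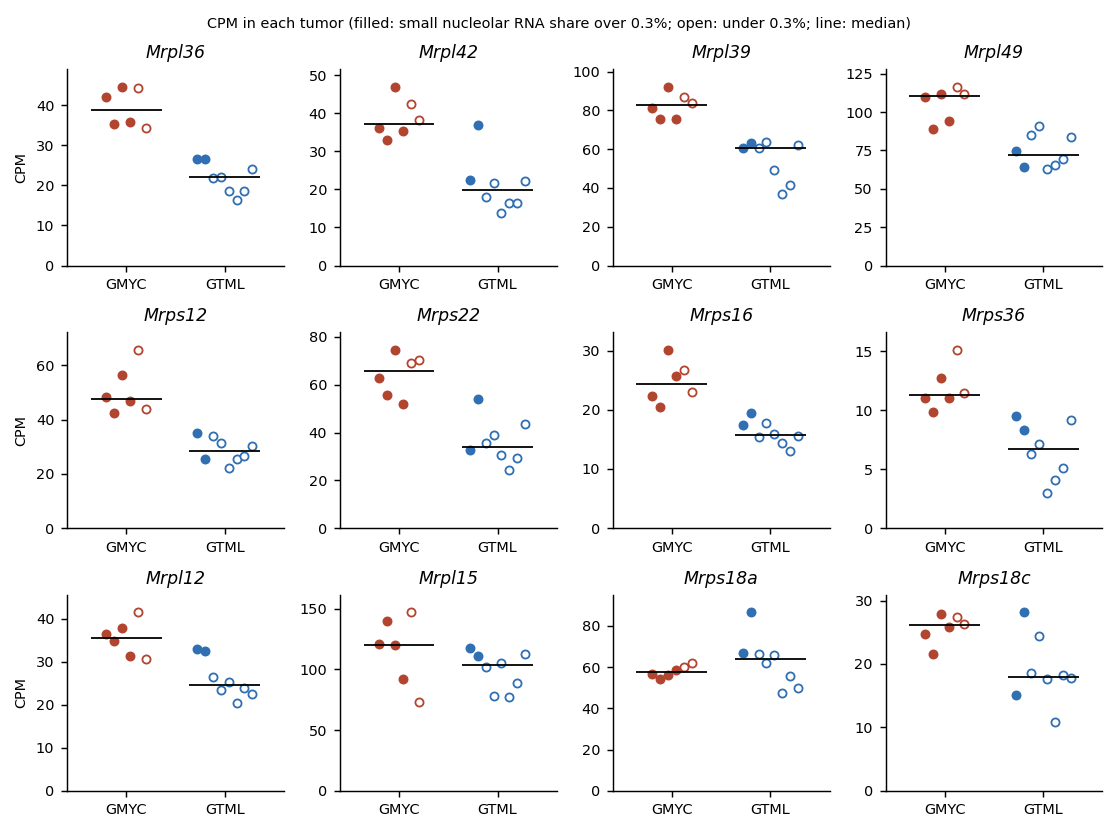
CPM of 12 members in each GMYC tumor (red) and GTML tumor (blue), with the median as a line. Filled points have a small nucleolar RNA share over 0.3%. Mrpl36, Mrpl39, Mrps12, Mrps16 and Mrps36 do not overlap between models, Mrpl42 and Mrps22 overlap through GTML tumor 2, and Mrpl15 and Mrps18a overlap widely.

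Mrps36 was once counted as a ribosomal protein and is now known as an adaptor of the 2-oxoglutarate dehydrogenase complex of the citric acid cycle. It was at 9.85 to 15.1 CPM in GMYC tumors (median 11.3) and at 3.02 to 9.52 CPM in GTML tumors (median 6.72). The models did not overlap, and the log2 fold change was -0.85 ± 0.26 (SE, edgeR adjusted p = 0.0313). The call was lost in 3 of the 14 fits that leave out 1 tumor, without the filter on low counts (adjusted p = 0.0515), with the small nucleolar RNA split (0.0635) or the Y-linked covariate (0.106) in the fit, with thinned counts (0.0575), and on each side of the split (0.0744 on the lower and 0.671 on the higher). With the replicate number as a block it was lost as well (edgeR adjusted p = 0.135).

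Mrpl15, a large subunit protein with a bacterial counterpart, was at 72.8 to 147 CPM in GMYC tumors (median 120) and at 77.4 to 118 CPM in GTML tumors (median 104). Its log2 fold change was -0.22 ± 0.16 (SE, edgeR adjusted p = 0.307), and GMYC tumor 6 was the lowest of all tumors. The 4 members with a value above 0 were Mrpl37 (0.19 ± 0.10, SE), Mrps18a (0.11 ± 0.13), Mrps10 (0.09 ± 0.21) and Mrps9 (0.02 ± 0.13), none of them called by edgeR (lowest adjusted p = 0.180). GTML tumor 2 had the top value of its model for all of these 4. Mrps10, for example, was at 82.1 CPM there and at 28.7 to 54.1 CPM in the other GTML tumors.

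The 3 paralogs named Mrps18 sit in different places, Mrps18a in the large subunit and Mrps18b and Mrps18c in the small subunit. Mrps18a was at 54.3 to 61.8 CPM in GMYC tumors (median 57.5) and at 47.5 to 86.5 CPM in GTML tumors (median 64.0). Mrps18b was at 13.2 to 35.1 CPM in GMYC tumors (median 23.9) and at 15.8 to 26.2 CPM in GTML tumors (median 19.3), a log2 fold change of -0.27 ± 0.20 (SE, edgeR adjusted p = 0.351). Mrps18c was at 21.5 to 27.8 CPM in GMYC tumors (median 26.1) and at 10.9 to 28.1 CPM in GTML tumors (median 18.01), a log2 fold change of -0.44 ± 0.19 (SE, edgeR adjusted p = 0.108). Mrps18b shares 30.5% of its exon bases with Gm16279 and Mrps18c 23.2% with Gm43511, so the levels of both are uncertain. None of the 3 paralogs was called, and differences among them were not tested.

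Per exon length, members differed widely in level. Over all tumors, Mrpl34 was the highest at 63.1 ± 17.2 RPKM (SD, n = 14), followed by Mrpl28 at 60.9 and Mrpl2 at 52.3, and Mrps28 was the highest of the small subunit at 49.7 ± 9.22 RPKM. The means of these 4 lie within the SD of Mrpl34. The exon length joins all annotated transcripts of a gene, so a gene with long rare transcripts is placed too low. Mrpl34 and Mrps28 had log2 fold changes of -0.44 ± 0.19 (SE, edgeR adjusted p = 0.107) and -0.35 ± 0.14 (adjusted p = 0.0806). The lowest were Mrpl53, at 0.185 RPKM and at most 0.404 CPM in any tumor, and Mrps34, at 1.86 ± 0.739 RPKM. Mrpl53 did not pass the filter, and 88.0% of its exon bases are shared with Ccdc142os and Gm42688. Mrps34 ran from 3.10 to 6.92 CPM in GMYC and from 1.36 to 4.55 CPM in GTML tumors, a log2 fold change of -0.67 ± 0.30 (SE, edgeR adjusted p = 0.117), and shares 77.8% with Mapk8ip3 and Nme3. Reads in such shared stretches cannot be assigned to 1 gene with certainty, so the levels of both are uncertain.

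Shorter genes were lower in GTML tumors in general. The median log2 fold change of protein-coding genes was -0.21 for those of up to 1000 exon bases, -0.11 between 1000 and 1500, -0.01 between 1500 and 2000, and 0.12 above 5000. The members were below the genes of their own length in each class, at -0.42, -0.48, -0.44 and -0.33 in these same classes, where they numbered 8, 11, 11 and 13. In the tumors themselves, the mean log2 CPM of genes of up to 1500 bases minus that of genes above 5000 bases lay between -2.60 and -2.39 in GMYC and between -2.96 and -2.53 in GTML tumors, and GTML tumors 5, 6 and 7 had both the lowest differences and the lowest mean level of the members. With the trend on length taken out of the fit, 24 members were lower and the median log2 fold change was -0.39, beside 10.5% of all genes called lower.

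**Figure D5:**
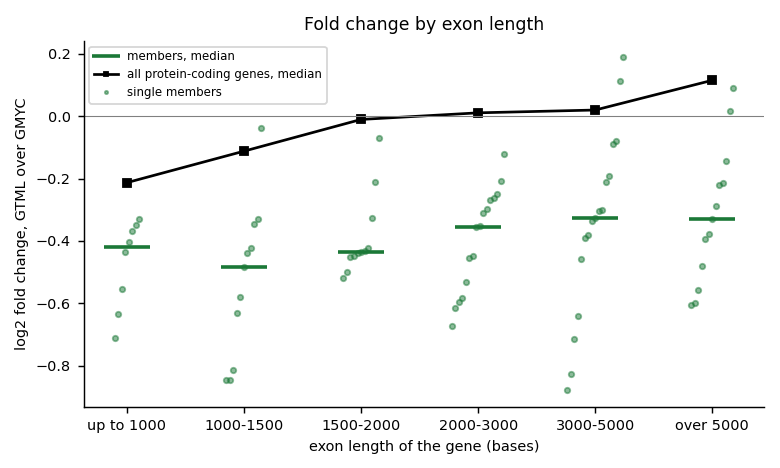
Log2 fold change, GTML over GMYC, by exon length of the gene in bases. Squares are the median of all protein-coding genes tested in each class, small points single members, and bars the members' median. The squares rise from -0.21 to 0.12 with length, and the bars lie between -0.48 and -0.33.

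Other genes of mitochondrial translation were read from lists, and their calls stand beside 9.71% of all genes lower and 11.5% higher. Of 5 ribosomal subunits with other names, Aurkaip1 was lower in GTML tumors (54.7 to 73.7 CPM in GMYC and 32.3 to 68.6 CPM in GTML, log2 fold change -0.62 ± 0.16, SE, edgeR adjusted p = 0.0165), and the median was -0.29. Of 11 translation factors, 2 were lower (18.2%) and 0 higher, and the median was -0.30. Tufm, the elongation factor that brings aminoacyl-tRNA to the ribosome, was at 58.1 to 94.2 CPM in GMYC and 34.0 to 59.7 CPM in GTML tumors (log2 fold change -0.83 ± 0.14, SE, edgeR adjusted p = 0.00338). Its exchange factor Tsfm was at 50.1 to 73.9 CPM in GMYC and 34.0 to 47.5 CPM in GTML tumors, with no overlap (-0.55 ± 0.13, SE, edgeR adjusted p = 0.0103).

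Of 25 ribosome assembly factors, 2 were lower and 0 higher, which is 8% beside the 9.71% of all genes, and the median was -0.18. These were Ybey, an endoribonuclease (log2 fold change -0.84 ± 0.20, SE, edgeR adjusted p = 0.0119), and Ngrn (-0.43 ± 0.12, SE, edgeR adjusted p = 0.0239). Of 6 genes of mitochondrial transcription and mRNA stability, edgeR called 0 in either direction and 2 passed an unadjusted p under 0.05. Lrpprc, which stabilizes mitochondrial mRNAs, had a log2 fold change of -0.36 ± 0.13 (SE, edgeR adjusted p = 0.0615). Among the mRNAs that the ribosome translates, 1 of 13 was lower, mt-Nd3 (-0.44 ± 0.14, SE, edgeR adjusted p = 0.0347), or 7.69% beside 9.71% of all genes. Beside 11.5% of all genes, 1 was higher, mt-Co1 (0.25 ± 0.08, SE, edgeR adjusted p = 0.0460), and the median was 0.10. Of the rRNAs of this ribosome, mt-Rnr1 had a log2 fold change of -0.34 ± 0.18 (SE, edgeR adjusted p = 0.180) and mt-Rnr2 of -0.04 ± 0.11 (adjusted p = 0.816). Counts on these 15 genes of mitochondrial DNA reached 0.495 to 1.27 per base in the tumor with the most, against at most 0.563 for any member. GTML tumors 5, 6 and 7, which had the lowest total counts, had the highest sums of these mRNAs (2021 to 2033 CPM). Whether such dense counts were capped, which would raise CPM at lower depth, was not tested. The fold changes of these 15 genes are therefore uncertain.

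Markers of other cells in the biopsies moved in part with the members. Calls in these lists and among the proliferation genes stand beside 9.71% of all genes lower and 11.5% higher. Hemoglobin and Alas2, 5 erythroid markers, were summed at 53.4 to 176 CPM in GMYC and 41.6 to 134 CPM in GTML tumors, with the 4 globins lower and Alas2 not called, and all 5 above 0 in every tumor. Of 6 cerebellar neuron markers 5 were tested and 1, Cbln3, was lower. They summed to 14.8 to 202 CPM in GMYC and 15.1 to 40.9 CPM in GTML tumors. Of 6 oligodendrocyte markers Mog was higher, of 7 photoreceptor markers 4 were higher, and of the 6 astrocyte, 7 microglia and 5 endothelial markers 0 were called by edgeR (2, 0 and 0 at an unadjusted p under 0.05). The astrocyte markers summed to 142 to 565 CPM in GMYC and 43.6 to 305 CPM in GTML tumors, the oligodendrocyte markers to 154 to 345 and 157 to 366 CPM, and the photoreceptor markers to 388 to 523 and 127 to 1205 CPM. Mobp, Gabra6, Cbln3, Gnat1 and Rcvrn were at 0 in at least 1 tumor. Of 6 proliferation genes, Ccnb1, Cdk1 and Pcna were lower, and their summed level was 1506 to 2785 CPM in GMYC and 1503 to 1995 CPM in GTML tumors. The part of these genes in the difference of the members was not tested.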

How the data were processed

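Total RNA of 14 tumor biopsies was sequenced on an Ion Proton instrument. The authors aligned the reads to mouse mm9 with STAR and then Bowtie and counted them per gene with featureCounts, and the submitters' processing notes name STAR 2.4.0, Bowtie2 2.2 and Subread 1.5.2. The deposited values are raw counts without normalization. The treatment of duplicates and strand is not given in the sources used here. Gene symbols, types and exon lengths came from GENCODE M21 (GRCm38), matched by Ensembl identifier for 32620 of 37310 rows (87.4%). A further 18 columns of per-sample counts match no sample label and were not used. Mrpl33 was not analysed here.

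Differences between models were tested in R 4.3.3 with edgeR 4.0.16 (TMM, CPM above 1 in at least 3 tumors, quasi-likelihood test, two-sided, Benjamini-Hochberg over all tested genes, adjusted p under 0.05), in place of the limma-voom fit of the study's methods. An SE is the log2 fold change divided by the root of F. RPKM divides the scaled CPM by exon length. Log2 CPM uses a prior count of 2. Alternatives were DESeq2 1.42.0, limma-voom (limma 3.58.1), other filters, no TMM, a replicate block, leaving out each tumor, the small nucleolar RNA split at 0.3%, a Y-linked covariate, removal of length trends, protein-coding genes only, thinned counts, and genes under 0.2 counts per exon base. Added after seeing the data were length with GC trends, and leaving out GTML tumor 2 with GMYC tumor 3. The main edgeR, DESeq2 and limma-voom fits and the removal of the length trend were tested on simulated data, and the other alternatives were not. Figures used matplotlib 3.10.9.

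The members, lists and alternatives were chosen with earlier results of these data known. Members were named by a rule, namely Mrpl15, Mrpl12, Mrps36, the Mrps18 paralogs, the 8 large and 6 small subunit members called lower with the smallest p, all called higher, and the extremes of RPKM per subunit. In each other list of the pathway the gene with the smallest p was named. Other genes were named after their values were seen.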

Additional observations from a re-analysis of the deposited data

Results flagged for a closer look

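In 52 groups of tumors checked (each named member and each average over members in each model), 1 tumor lay far from the others of its model. Mrpl42 in GTML tumor 2 was at 36.9 CPM, the next GTML tumor was at 22.4 CPM, and the gap was 0.628 of the whole range. Chance gives about 1 in 20 such groups, or 2.6 of 52.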

How the results depend on the processing

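The number of members called lower in GTML (23) stayed within 1.5 times under DESeq2, limma-voom, the scaling without TMM and both other filters. It did so too under both trend corrections, protein-coding genes only, thinned counts and the removal of GTML tumor 2 with GMYC tumor 3. Among genes under 0.2 counts per base it was 17, but of only 49 members tested. It was 15 with the side of the small nucleolar RNA split in the fit, 15 among the tumors with the lower share, 0 among those with the higher share and 9 with a covariate from Y-linked genes, which left 2.63% of all genes called lower. The median log2 fold changes over all, large and small subunit members were -0.0688, -0.0940 and -0.0478 among the tumors with the higher share, and that of the large subunit was -0.63 among those with the lower share. Leaving out 1 tumor gave 12 to 43 members called lower, with 15 without GTML tumor 7, and 0 to 1 past the stricter thresholds, the 1 being Mrpl42 without GTML tumor 2. The cause of these shifts was not tested. With the replicate number as a block, edgeR called 0 members lower (21 at an unadjusted p under 0.05) and 0.414% of all genes. No label says what the numbers mark, and the deviations of same-numbered tumors correlated between -0.21 and 0.24. Such correlations cannot exclude a shared origin or day, so whether the block is warranted is not known. No member was called higher in any of these fits. Counts per gene limit the low members, and 6 against 8 tumors, of which each side of the split holds only 2 of 1 model, limits every call.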
